A study of Homo sapiens with 2 samples.

Results

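The genes described here encode the kinesins and the centromere proteins of the CENP nomenclature, chosen as the protein-coding genes whose symbols start with KIF or KIFC and a number, or with CENP and a letter. The rule found 66 genes, 42 kinesins and 24 CENP genes, among 19974 protein-coding genes on chromosomes 1 to 22 and X. KDM1B (LSD2), a histone lysine demethylase, had been mapped by anti-FLAG chromatin immunoprecipitation (ChIP) in cells of the line MDA-MB-231, derived from a triple negative breast tumour, with 1 ChIP library and 1 input library. Both libraries came from cells of the same genotype, stable expression from the retroviral vector pOZ of KDM1B fused to a FLAG tag in 3 copies, and no library from cells without the tag was analysed here. The deposited values are the authors' list of 78536 peaks on hg38 each with its log2 ratio of ChIP to input. Without replicates there is no replicate error and no test for any value given here, and sequencing depth is unknown.

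Kinesins are motors that use ATP to walk along microtubules or, in some families, to take them apart at their ends. One set of kinesins builds the mitotic spindle, moves chromosomes and completes cytokinesis, and these genes are known to be transcribed mainly in G2 and M phase of dividing cells. Another set carries vesicles, organelles and RNA, and several of its members are made mostly in neurons. CENP proteins mark the centromere and build the inner kinetochore, the platform on which microtubules attach, and CENPE is itself a kinesin. The kinesins were divided by textbook function into 14 mitotic, 8 neuronal transport, 9 broadly expressed transport and 11 other genes.

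KDM1B peaks were more numerous and covered more of the span in the mitotic kinesin genes than in protein-coding genes at large, the CENP genes had intermediate medians, and the neuronal transport kinesin genes had medians near those of all protein-coding genes. A peak midpoint lay in the gene or at most 5 kb outside it in 12 of 14 mitotic kinesins (85.7%, exact Clopper-Pearson 95% interval 57.2 to 98.2%), in 6 of 8 neuronal transport kinesins (75%, 34.9 to 96.8%) and in 20 of 24 CENP genes (83.3%, 62.6 to 95.3%), against 67.5% of all protein-coding genes. These intervals overlap, but they cover the counting of genes only, and no test between the groups was made. The number of peaks and their coverage differed more. The median was 10 peaks per gene in mitotic kinesins, 2 in neuronal transport kinesins and 5.5 in CENP genes, against 2 over all protein-coding genes. The median percent of the gene span inside peaks was 28.0% in mitotic kinesins, 1.31% in neuronal transport kinesins and 10.9% in CENP genes, against 1.52% over all protein-coding genes. Over all 66 members 52 had a peak (78.8%), the median was 4.5 peaks and the median coverage 8.0%.

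**Figure D1:**
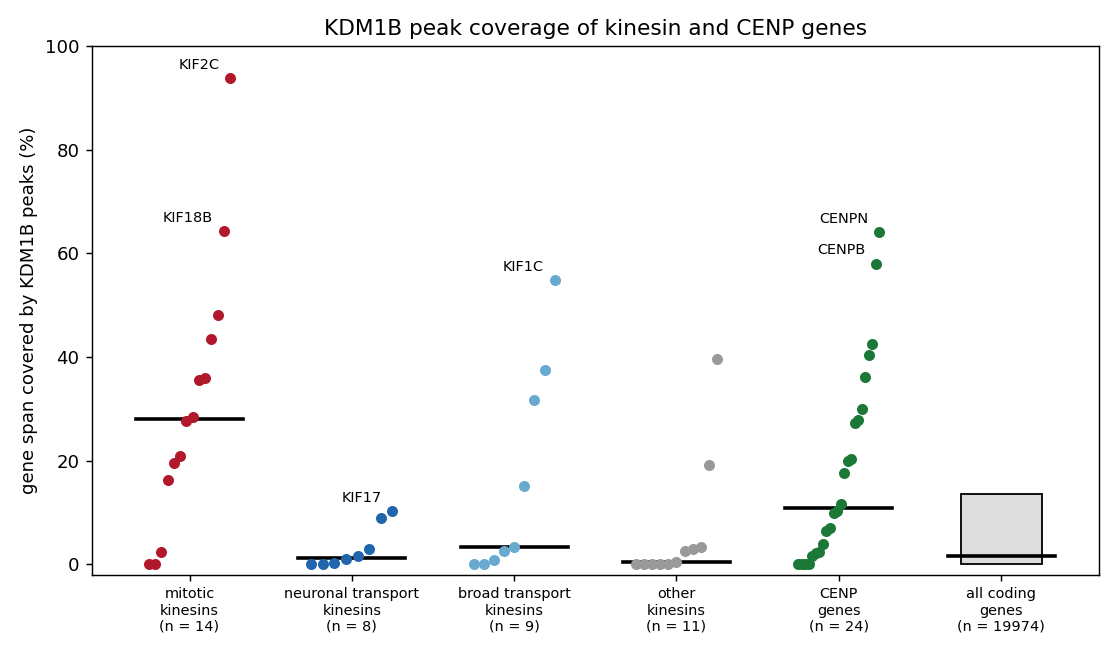
Percent of each gene span covered by KDM1B peaks (vertical axis), with 1 point per gene, black bars at the group medians, and for all protein-coding genes a box from the lower to the upper quartile. Of the 14 mitotic kinesins 11 lie above 10%, while 1 of the 8 neuronal transport kinesins, KIF17 at 10.3%, does.

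Peaks covered 10% or more of the span in 11 of 14 mitotic kinesins, 1 of 8 neuronal transport kinesins, 4 of 9 broadly expressed transport kinesins, 2 of 11 other kinesins and 13 of 24 CENP genes, against 29.1% of all protein-coding genes. Coverage of 50% or more was found in 5 members, KIF2C, KIF18B, CENPN, CENPB and KIF1C, or 7.58% of the 66 against 7.28% of all protein-coding genes. The share of members at the higher threshold was thus near that of all genes. The median peak of the members was 876 bp wide against 831 bp for peaks of all protein-coding genes. Of the 471 distinct member peaks 7 were 5 kb or wider, against 1099 of the 68989 peaks of all protein-coding genes.

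Promoter windows are shown for the genes with the strongest peak over a window among mitotic kinesins, broadly expressed transport kinesins and CENP genes, since a peak at a start is the site nearest to the promoter. The windows run from 250 bases before to 50 bases after a start listed by RefSeq on GRCh38.p14, 5′ to 3′ on the gene's strand. Capitals mark matches on either strand to 3 kinds of motif known from promoters of cell cycle genes, TTTGAA (the cell cycle homology region, CHR), CCAAT, and the E2F forms TTCCCGC or TTGGCGC. The KIF18A window lies at chr11:28108107-28108406 on the minus strand, the KIF5B window at chr10:32056376-32056675 on the minus strand and the CENPK window at chr5:65563119-65563418 on the minus strand. No window of a neuronal transport kinesin overlapped a peak, and none was chosen from the other kinesins, where the strongest such peak was that of KIF24 (log2 ratio 2.87).
KIF18A: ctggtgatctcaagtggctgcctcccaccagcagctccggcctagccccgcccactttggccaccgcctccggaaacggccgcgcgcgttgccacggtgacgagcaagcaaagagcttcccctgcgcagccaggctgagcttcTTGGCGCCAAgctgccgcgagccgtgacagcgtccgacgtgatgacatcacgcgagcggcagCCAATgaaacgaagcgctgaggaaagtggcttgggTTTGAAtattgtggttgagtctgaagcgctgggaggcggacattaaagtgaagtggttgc
KIF5B: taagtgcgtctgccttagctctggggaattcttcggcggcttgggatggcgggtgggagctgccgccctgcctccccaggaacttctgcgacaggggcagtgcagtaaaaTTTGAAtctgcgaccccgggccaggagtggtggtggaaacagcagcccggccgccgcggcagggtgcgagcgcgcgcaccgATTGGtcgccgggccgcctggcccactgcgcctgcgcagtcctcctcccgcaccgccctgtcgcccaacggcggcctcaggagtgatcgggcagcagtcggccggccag
CENPK: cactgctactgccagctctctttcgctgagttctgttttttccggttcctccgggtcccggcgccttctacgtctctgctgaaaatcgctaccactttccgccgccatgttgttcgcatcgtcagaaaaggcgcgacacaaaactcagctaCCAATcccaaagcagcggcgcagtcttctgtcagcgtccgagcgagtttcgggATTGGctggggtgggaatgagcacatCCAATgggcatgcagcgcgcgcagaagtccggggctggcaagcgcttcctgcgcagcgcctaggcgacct

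The KIF18A window held a CHR match at base 241, next to the start at base 251, a CCAAT box at base 206, and E2F matches on both strands at bases 144 and 147 that overlap in a palindrome. KIF5B held a CHR match at base 111 and a CCAAT box on the other strand at base 192, and CENPK held 3 CCAAT boxes, at bases 152, 205 and 231. The CHR letters were found in 10 of the 15 listed windows of mitotic kinesins, in 0 of 8, from 5 genes, of neuronal transport kinesins and in 6 of 23 of CENP genes, against 12.4% of all 22132 windows of protein-coding genes. CCAAT was found in 11 of 15 windows of mitotic kinesins, 1 of 8 of neuronal transport kinesins and 13 of 23 of CENP genes, against 34.6% of all windows. The E2F forms were found in 3, 1 and 5 windows of these groups, against 11.5% of all windows. Windows of 1 gene can overlap, as those of KIF22 do, and CENPS and its readthrough gene share theirs. Median GC content of the windows was 62.0% in mitotic kinesins, 72.7% in neuronal transport kinesins and 62.7% in CENP genes, against 62.3% over all windows.

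Among the mitotic kinesins coverage was highest in KIF2C (MCAK), a microtubule depolymerase of the centromere, whose span of 27.9 kb on chromosome 1 (44739837 to 44767767) lay 93.8% inside peaks. Its 8 peaks included 2 that were 10372 bp and 10985 bp wide, from 44744507 to 44754879 with a log2 ratio of 2.95 and from 44757297 to 44768282 with a log2 ratio of 3.55, and between them its strongest, 2175 bp wide with a log2 ratio of 3.65. No other protein-coding gene lay within 5 kb of KIF2C. KIF18B, which shortens astral microtubules, followed with 64.3% coverage from 12 peaks in 23.1 kb, again without a coding neighbour within 5 kb. KIF20A (MKLP2), which brings the chromosomal passenger complex to the central spindle, had 48.1% and 7 peaks, but all 7 also lay in or within 5 kb of another coding gene, BRD8 and CDC23 being its neighbours. KIF11 (Eg5), the motor that pushes spindle poles apart, had 43.6% and 22 peaks. These genes of highest coverage ranged in length from 8.61 kb (KIF20A) to 62.3 kb (KIF11). KIF2B and KIF4B, like KIF20A under 10 kb, had 0% coverage.

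The highest counts were in longer mitotic kinesin genes, though not all longer ones had many peaks. KIF4A, a chromokinesin that also organises the central spindle, had 36 peaks in 130.8 kb on chromosome X, 27.6% of its span. KIF14, a kinesin of cytokinesis, had 23 peaks and 35.9% coverage, and KIF15, which can stand in for KIF11, had 19 peaks and 16.2% coverage. KIF23 (MKLP1), the motor subunit of centralspindlin, had 16 peaks and 35.6% coverage. KIF20B, another kinesin of cytokinesis, had 14 peaks and 19.6%, KIFC1 (HSET), a minus-end motor that focuses spindle poles, had 4 and 20.9%, and KIF22 (Kid), a chromokinesin, had 3 and 28.4%. KIF18A, which dampens chromosome oscillations, was the only mitotic kinesin with peaks under 10% coverage, at 2.47% with 4 peaks in 87.5 kb. The remaining pair had no peak. KIF4B, an intronless copy of KIF4A, stood 59350 bp from the nearest peak midpoint, and KIF2B, a kinetochore depolymerase in a gene of 2.27 kb, stood 527830 bp away. Reads of near-identical copies cannot always be placed, and no source used here states their treatment, so the values of KIF4A and KIF4B are uncertain in this respect.

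**Figure D2:**
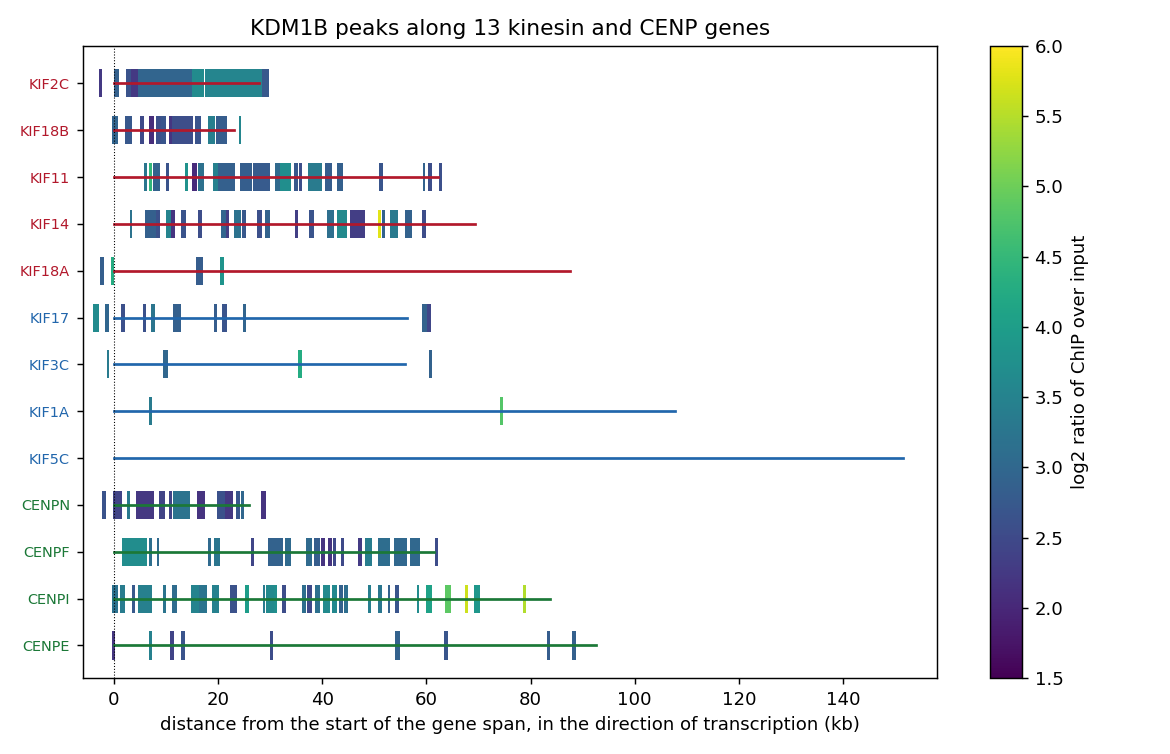
KDM1B peaks along 13 genes, drawn to scale from the start of the gene span in the direction of transcription (horizontal axis, kb), with lines for the gene span in red for mitotic kinesins, blue for neuronal transport kinesins and green for CENP genes, and boxes for peaks coloured by log2 ratio. Boxes fill most of KIF2C (93.8% of the span), while KIF1A holds 2 and KIF5C none.

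The neuronal transport kinesins carried 23 peaks in all, of which KIF17 held 11. KIF17, a dendritic kinesin known from mouse for carrying glutamate receptors, had 10.3% coverage, and 5 of its peaks were also in or within 5 kb of other coding genes, DDOST and SH2D5 being its neighbours. KIF3C, a kinesin-2 subunit, had 4 peaks and 2.96% coverage, and KIFC2, a minus-end motor on chromosome 8, had 3 peaks and 8.98%, with all 3 also near other genes. KIF1A, which carries synaptic vesicle precursors, had 2 peaks in 107.6 kb, with log2 ratios of 4.79 and 3.36, and 1.05% coverage. KIF5A, a conventional kinesin heavy chain of neurons, also had 2, both with a log2 ratio of 5.57, 1 inside the gene and 1 beside it, and 1.58% coverage. KIF21A, mutated in congenital fibrosis of the extraocular muscles, had 1 peak of 500 bp in 149.9 kb. KIF5C, another neuronal heavy chain gene of 151.5 kb, had no peak within 197241 bp, and KIF21B had none within 19532 bp. Across the group, counts stayed between 0 and 4 in every gene other than KIF17.

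The broadly expressed transport kinesins ranged from 0 to 54.9% coverage, with a median of 8 peaks and 3.33% coverage, and 8 of 9 had a peak. KIF1C had 54.9% coverage and 15 peaks, KIFC3, a minus-end motor, 37.5% and 18, KIF5B, the heavy chain made in most cells, 31.7% and 16, and KIF3B, a kinesin-2 subunit needed for cilia, 15.2% and 15. Among the others, KIF1B had 8 peaks and 3.33% coverage, KIF13A 7 and 2.54%, and KIF13B 3 and 0.845%. KIF16B, an endosome motor in a gene of 301.3 kb, had no peak within 160533 bp. Within the family of conventional heavy chains, KIF5B thus held 16 peaks against 2 in KIF5A and none in KIF5C.

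The 11 other kinesins had peaks in 6 genes and a median coverage of 0.435%. KIF7, a regulator of Hedgehog signalling in the cilium, had 39.6% coverage and 13 peaks, 6 of them also near TICRR, PLIN1 or another coding gene, and KIF2A, a microtubule depolymerase, had 19.1% and 16. KIF27 had 5 peaks and 3.29% coverage, KIF26B 5 in 554.4 kb and 0.435%, KIF9 4 and 3.04%, and KIF24, a depolymerase of centrioles, 4 and 2.48%. KIF6, KIF12, KIF19, KIF25 and KIF26A had none. The nearest peak midpoint to these 5 stood between 30772 bp (KIF25) and 109222 bp (KIF6) away.

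Among the CENP genes coverage was highest in CENPN, which reads the CENP-A nucleosome, with 64.1% of 25.9 kb and 13 peaks, 6 of them also near CMC2, ATMIN or another coding gene. CENPB, the protein that binds alpha satellite DNA, had 58.0% of a span of 2.89 kb from 2 peaks. CENPF, a large protein of the outer kinetochore, had 42.4% and 20 peaks with no coding neighbour within 5 kb, and CENPO had 40.4% and 8. CENPI, a subunit of the inner kinetochore, had the most peaks, 32 in 83.7 kb on chromosome X, and 36.2% coverage. CENPH followed with 30.1% and 6 peaks, CENPA, the centromeric histone H3 variant, with 27.8% and 5, and CENPT, an anchor of the outer kinetochore, with 27.2% and 10. CENPX had 20.3% and 3 peaks, CENPU 20.0% and 9, CENPM 11.6% and 3, and CENPV 10.2% and 2. CENPS had 17.5% and 6 peaks, all 6 shared with its readthrough gene CENPS-CORT, which had 8.

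Other CENP genes were low. CENPK had 6 peaks and 7.02% coverage, the kinetochore kinesin gene CENPE 9 and 6.47%, CENPP 7 and 3.94%, CENPC, the scaffold of the inner kinetochore, 3 and 2.38%, CENPL 3 and 2.15%, and CENPQ 1 and 1.68%. CENPW had none within 273836 bp of its span of 143.2 kb. The related genes CENPVL1, CENPVL2 and CENPVL3 on chromosome X had none either, and CENPVL1 stood nearest to the limit of 5 kb, 7034 bp from a peak midpoint. Reads of such copies may not be placeable, as said for KIF4A and KIF4B, so the absence of peaks there is uncertain. KIF3A, a kinesin-2 subunit, had a peak only outside its span, 628 bp away, and was the only member counted through a peak beside the gene alone. Of the 15 members in the constitutive centromere-associated network, the inner kinetochore proper, 14 had a peak, against 67.5% of all protein-coding genes. Their medians were 6 peaks and 17.5% coverage, against 2 peaks and 1.52%. ITGB3BP, a gene of this network outside the symbol rule, had 1 peak and 1.13% coverage and is not among the 15. Without the CENPVL copies, left out with their values known, 20 of 21 CENP genes had a peak, against the same 67.5%.

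Gene length differed between the groups, with medians of 31.0 kb in mitotic kinesins, 56.1 kb in neuronal transport kinesins and 23.5 kb in CENP genes, against 24.2 kb over all protein-coding genes. Among genes under 10 kb, the 3 mitotic kinesins had a median of 0 peaks and 0% coverage, the 1 neuronal transport kinesin, KIFC2, 3 peaks and 8.98%, and the 6 CENP genes 1 peak and 10.1%, against 1 peak and 0% over all such genes. Among genes of 10 to 50 kb, the 5 mitotic kinesins had a median of 8 peaks, the 1 neuronal transport kinesin, KIF5A, 2 and the 11 CENP genes 6, against 2 over all such genes. Among genes of 50 to 100 kb, the 4 mitotic kinesins had a median of 18 peaks, the 3 neuronal transport kinesins 4 and the 5 CENP genes 9, against 3. Among genes of 100 kb or longer, the 2 mitotic kinesins had a median of 27.5 peaks, the 3 neuronal transport kinesins 1 and the 2 CENP genes 3.5, against 2. From 50 to 100 kb 16 of 17 members had a peak, against 77.8% of all such genes. Among genes of 10 to 50 kb 21 of 24 members had one, against 71.8%, and among genes of 100 kb or longer 10 of 14, against 76.7%. Under 10 kb 5 of 11 did, against 50.6%, so members of the shortest and longest classes carried peaks about as often as other genes of their size. Per 100 kb of gene and flanks the median was 18.9 peaks in mitotic kinesins, 3.00 in neuronal transport kinesins and 12.8 in CENP genes, against 3.82 over all protein-coding genes. The median mitotic kinesin had a higher coverage than 87.3% of the protein-coding genes in its length class, the median neuronal transport kinesin than 45.95% and the median CENP gene than 70.8%.

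**Figure D3:**
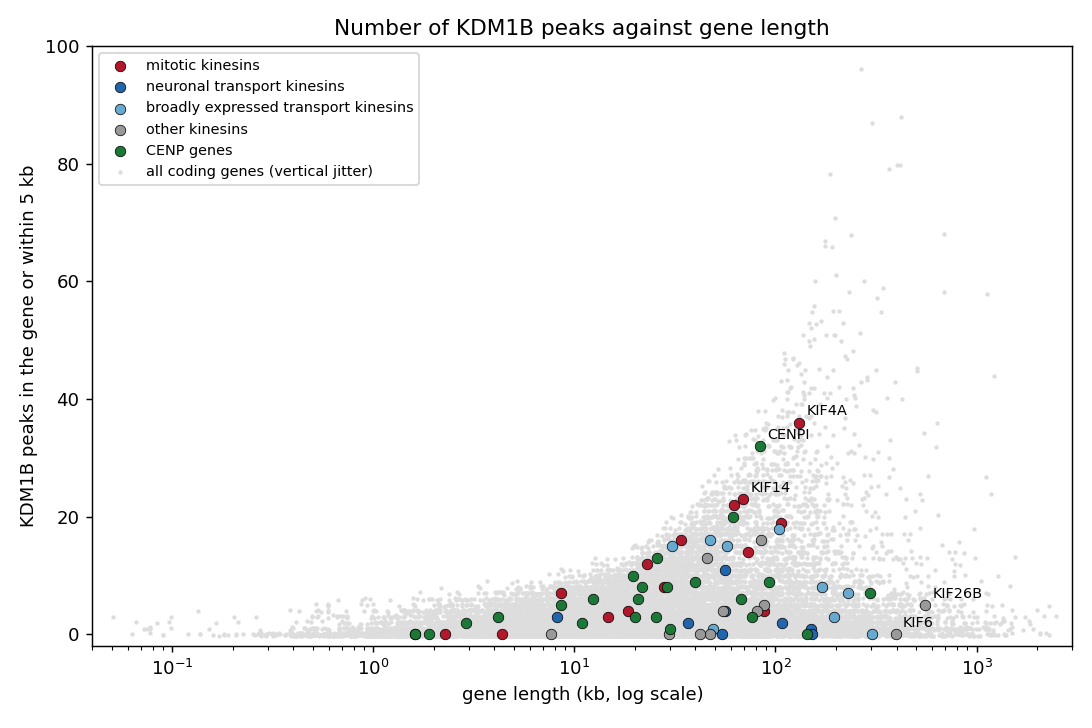
Number of KDM1B peaks in the gene or within 5 kb (vertical axis) against gene length in kb (horizontal axis, log scale) for the 66 members, coloured by group, and for all 19974 protein-coding genes in grey, which are jittered vertically. KIF4A (36 peaks), CENPI (32) and KIF14 (23) stand highest among the members, and KIF6 (395.4 kb, 0 peaks) and KIF26B (554.4 kb, 5 peaks) are the longest.

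Surrounding genes were compared through the other protein-coding genes within 500 kb, members left out. Coverage was above the median of these neighbours in 12 of 13 mitotic kinesins with such neighbours, in 1 of 8 neuronal transport kinesins and in 17 of 24 CENP genes. It was below that median in 1, 7 and 4 genes of these groups, and the remaining CENP genes tied with it. The share of all protein-coding genes above their own neighbours was not computed, so these counts have no background. The medians of the neighbour medians were 2.28%, 5.45% and 2.60% for these groups, and a part of the neighbourhood in the coverage of the members was not tested. Of the 477 peak assignments, 108 (22.6%) were to peaks that also lay in or within 5 kb of another coding gene, with 18 of 168 in mitotic kinesins, 9 of 23 in neuronal transport kinesins and 57 of 156 in CENP genes. The 57 count the 6 peaks shared by CENPS and its readthrough gene CENPS-CORT for both, each gene being a neighbour of the other. Assignments of all protein-coding genes were not divided in this way. The 33 members with no other coding gene within 5 kb had a peak in 20 cases (60.6%), against 55.4% of all such genes. Among these the 7 mitotic kinesins had a median coverage of 35.9%, the 5 neuronal transport kinesins 0.334% and the 9 CENP genes 2.38%, against 0.156% of all such genes.

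RefSeq windows gave a start and a strand for 55 of the 66 members. A peak midpoint lay within 1 kb of a listed start in 26 of these 55 (47.3%, 33.6 to 61.2%), against 39.8% of the 15812 protein-coding genes with a listed start. The count was 7 of 14 in mitotic kinesins, 0 of 5 in neuronal transport kinesins (an exact interval up to 52.2%), 6 of 7 in broadly expressed transport kinesins, 4 of 8 in other kinesins and 9 of 21 in CENP genes. The strongest start peaks were those of KIF18A (log2 ratio 4.28), KIFC1 (4.21) and KIF5B (4.02), followed by KIF23 (3.43), KIF3A (3.35), CENPK (3.04), KIF18B (2.93), CENPX (2.91), CENPB (2.88) and KIF2C (2.88). Weaker ones included KIF24 (2.87), CENPI (2.75), KIF4A (2.70), KIF13A (2.67), CENPT (2.59), KIF1C (2.50), CENPA (2.44), KIF9 (2.32), KIF7 (2.31), KIF1B (2.26) and KIF2A (1.90). The listed starts of CENPI, KIF24 and KIF7 lie inside their spans, so these values are not those of the outer end of the gene. A peak over the start of the CENPI span (101097826 to 101099013) had a log2 ratio of 3.18. The KIF18A peak (chromosome 11, 28108031 to 28108675) lay within 5 kb of METTL15 as well. It was not alone in this. Both the 2 peaks of CENPB and the 3 of CENPX, start peaks included, also lay in or within 5 kb of another coding gene, as did 2 of the 6 peaks of CENPK. Within 1 kb of the far end a peak was found in 12 of 55 members (21.8%), against 17.4% of all genes, 4 of 14 in mitotic kinesins and 4 of 21 in CENP genes.

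Covered genes did not all have a peak at the start. KIF11, KIF14, KIF15, KIF20A, KIF22 and CENPF had none within 1 kb of a listed start, at 16.2 to 48.1% coverage. In the 45 members of 10 kb or more with a strand, 364 peak assignments lay inside the gene, the 4 that CENPS and CENPS-CORT share being counted for both, with 29.95% in the first of 3 equal parts of the span, 38.5% in the middle part and 31.6% in the last. Over all protein-coding genes of that length the shares were 31.0%, 30.5% and 38.5%. The mitotic kinesins held 45, 63 and 44 peaks in the 3 parts, and the CENP genes 39, 43 and 34.

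The log2 ratios of the peaks differed little between the groups. The median over distinct peaks was 3.01 (quartiles 2.68 and 3.49) in mitotic kinesins, 2.94 (2.72 and 3.51) in neuronal transport kinesins and 3.00 (2.60 and 3.43) in CENP genes, against 2.95 (2.58 and 3.47) for peaks of all protein-coding genes. The highest ratios were those of KIF1C (6.36), CENPS (5.86, shared with CENPS-CORT), KIF14 (5.79), CENPI (5.65), KIF5A (5.57), KIF21A and KIF26B (5.49 each) and KIFC1 (5.40). Each of these stood at a whole multiple of a common step of 2.64 in the linear ratio, as happens where few input reads lie under a peak or the ChIP reads are a multiple of them. Such ratios made up 11 of 168 peaks in mitotic kinesins, 4 of 23 in neuronal transport kinesins and 16 of 150 in CENP genes, against 11.4% of the peaks of all protein-coding genes, and their part in these values was not tested. Strong single ratios and dense coverage did not always go together: KIF2C, with the highest coverage, had 3.65 as its strongest ratio, and KIF21A, with 5.49, had 1 peak.

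**Figure D4:**
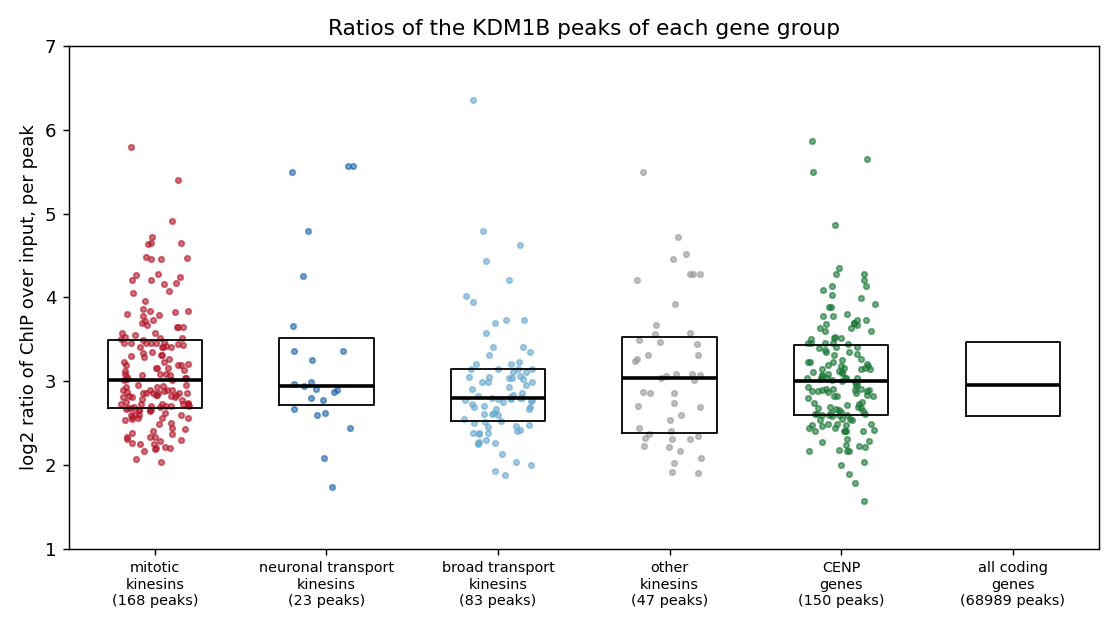
Log2 ratio of ChIP to input for every distinct KDM1B peak (vertical axis) by gene group, with 1 point per peak and boxes from the lower to the upper quartile with the median. The group medians lie between 2.80 and 3.03, beside 2.95 for the 68989 peaks of all protein-coding genes.

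Partner genes of the same machines, taken from lists of kinetochore, passenger and spindle proteins and of kinesin adaptors, were counted in the same way. Of 44 kinetochore, passenger and spindle genes 42 had a peak (95.5%), with a median of 7 peaks and 23.3% coverage, against 67.5%, 2 peaks and 1.52% over all protein-coding genes. The most peaks were in MAD1L1, a checkpoint protein, with 80 in 417.2 kb, CKAP5, a microtubule polymerase, with 37, TPX2, a spindle assembly factor, with 26, and the checkpoint kinase gene BUB1B with 25, and SPC25 and SKA1 had none. Coverage of 50% or more was found in 15 of the 44, against 2 of 14 mitotic kinesins and 7.28% of all protein-coding genes. Of 22 light chain and cargo adaptor genes 19 had a peak (86.4%), with a median of 7.5 peaks and 8.81% coverage, against the same 67.5%, 2 peaks and 1.52%. KLC1, a kinesin light chain, had 25, MAPK8IP3 had 23 and CLSTN1 and FEZ2 17 each, and those with none included FEZ1 and KIFAP3, the accessory subunit of kinesin-2.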

How the data were processed

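KDM1B ChIP was measured against input in 1 library each of MDA-MB-231 cells. Trim Galore 0.4.5, Bowtie2 2.2.9 and hg38 are named in the submitters' processing notes, while the peak caller and its settings were not given in the sources used here. The list deposited by the authors gives 1 log2 ratio of ChIP over input per peak, with no counts and no p-values, so depth is unknown. The log2 scale was read from the values. A common step of 2.64 was fitted to the highest 1% of the linear ratios. Of all peaks 12.4% stood at a whole multiple of it (tolerance 1e-04). The list does not state if positions start at 0 or 1, and coordinates are printed as deposited.

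Gene spans came from RefSeq on GRCh38.p14, and starts and strands from RefSeq promoter windows, which listed 55 of 66 members. KIF5A, KIF13B, KIF19, KIF21B, KIF26B, KIF27, KIFC2, KIFC3, CENPH, CENPL and CENPM have no listed window. A peak belongs to every gene with its midpoint in the span or within 5 kb. Coverage is the percent of the span inside peaks. Exact intervals cover the counting of genes only, and neither genes nor peaks are independent replicates. Counting was checked on simulated data. Python 3.11.15, pandas 2.3.3, numpy 2.4.6 and scipy 1.17.1 were used.

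Members, groups and lists were chosen with earlier results of these data known. Named genes were those without a peak and, per group, those with most peaks, highest coverage, strongest ratio and start peaks, and the text adds the remaining members. Of the adaptor genes, 1 that the rule names is not reported here. Alternatives were other distances, any overlap, stronger peaks, joined peaks, removal of whole multiples, removal of members near other genes, and moving CENPE or KIF2A.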

Additional observations from a re-analysis of the deposited data

How the results depend on the processing

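No value here has a replicate, so alternatives show only how the counting moves. Shares of all protein-coding genes were computed only for the main setting and for genes without a coding neighbour. The other alternatives have no such background. No paired analysis was possible because each group held 1 library. Of 128 values under alternatives 99 stayed within the exact interval of the main share or within 1.5 times the main median. Both numbers include values that could not change, since moving CENPE or KIF2A leaves groups that neither gain nor lose a gene as they were. Exact intervals of small groups are wide, so a share could move far and still count as within. Mitotic kinesins stayed above neuronal transport kinesins in median coverage and median number of peaks under every alternative run. With the gene span only, the median number of peaks was 1 in neuronal transport kinesins and 3.5 in CENP genes, and within 1 kb it was 3.5 in CENP genes. With the stronger part of the list, at or above the median ratio, the median number of peaks was 2 over all members, 2.5 in mitotic kinesins and 1 in CENP genes. Median coverage was then 2.54% over all members, 13.3% in mitotic kinesins, 0.689% in neuronal transport kinesins and 4.35% in CENP genes. Start peaks within 1 kb were then found in 10.9% of members, 21.4% of mitotic kinesins and 4.76% of CENP genes, and end peaks in 7.27% of members and 7.14% of mitotic kinesins. With peaks within 1 kb joined, the median was 4.5 peaks in mitotic kinesins and 3.5 in CENP genes. Without whole multiples, neuronal transport kinesins had a median of 1 peak and 0.523% coverage, and 4 of 8 had a peak, against 6 of 8 in the full list. Without members near another coding gene, 60.6% of members and 55.6% of CENP genes had a peak, against 55.4% of all such protein-coding genes. The medians were then 2 peaks and 0.845% coverage over all members, 1 and 0.334% in neuronal transport kinesins, and 2 and 2.38% in CENP genes. End peaks within 2 kb were found in 36.4% of members and 42.9% of CENP genes. Start peaks within 2 kb were found in 2 of 5 neuronal transport kinesins, against 0 of 5 within 1 kb. For mitotic kinesins the count was 7 of 14 at both distances. Moving CENPE or KIF2A to the mitotic kinesins left the values of the groups that gained or lost a gene within these limits. The cause of these shifts was not tested.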

Other observations

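KIF4A and CENPI, named for this after their values were seen, lie on chromosome X, which carried few peaks in this list. Together they held 68 of the 1100 peaks on X (6.18%). Of the 848 protein-coding genes on X, 314 (37%) had a peak in the gene or within 5 kb, against 67.5% of all protein-coding genes. On X 4 genes had more than 30 peaks: TAF1, a subunit of the general transcription factor TFIID, with 45, the ubiquitin ligase gene HUWE1 with 36, KIF4A with 36 and CENPI with 32. The limit of 30 lies just under the value of CENPI, and the share of all protein-coding genes above it was not computed. PHF8 and POLA1 came next on X with 20 each. The other members on X, CENPVL1, CENPVL2 and CENPVL3, had none, with the possible limit on placing reads given above.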
